A study of Mus musculus with 8 samples.

Results

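Transcripts of 39 genes of glycolysis, lactate exchange, the pyruvate dehydrogenase step and the citric acid cycle were examined in mouse kidney. They were chosen by symbol as all rows of the deposited table with a listed name, 39 of 23386 genes: 15 of glycolysis, 3 that act on lactate, 6 of the pyruvate dehydrogenase complex and its kinases, and 15 of the citric acid cycle. Whole left kidneys of 49-week-old C57BL/6J mice were sequenced, 4 from wild-type (WT) animals and 4 from littermates homozygous for a Ctrp1 knockout allele (KO). CTRP1, encoded by C1qtnf1, is a secreted relative of adiponectin. The allele, made in 129S5/Sv embryonic stem cells, lacks 679 bp from the coding part of exon 4 into its 3′ UTR and was bred for more than 6 generations onto C57BL/6J. It is a germline deletion, so the gene is disrupted in the whole body and not in the kidney alone. Replicate numbers only name the animals of a genotype, and nothing pairs WT with KO animals.

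Glycolysis splits glucose into pyruvate in the cytosol. Its steps at hexokinase, phosphofructokinase and pyruvate kinase run one way in the cell, and the steps between them are reversible and serve gluconeogenesis as well. Pyruvate dehydrogenase turns pyruvate into acetyl-CoA in the mitochondrion, where the citric acid cycle oxidises it, and pyruvate dehydrogenase kinases switch the complex off by phosphorylation. In the kidney the proximal tubule makes glucose and lives largely on fatty acids, lactate and glutamine, whereas the thick ascending limb and the collecting duct are the segments known for glycolysis.

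The libraries held 15027400 to 19256378 counted reads. Values are scaled FPKM, which is reads per length of gene and depth of library, divided by 1 factor per library, so levels of different genes can be set side by side. C1qtnf1 was at 3.85, 2.74, 3.18 and 4.75 in the WT libraries and 0.188, 0.575, 0.228 and 0.311 in the KO libraries, lower in all 4 KO libraries (exact two-sided permutation test, p = 0.0286, the smallest that 70 arrangements allow). Reads outside the deleted bases still count toward the gene, so a value of 0 is not required of a KO library. Markers of the labelled organ were high in all 8 libraries, such as Umod of the thick ascending limb at 1116 to 1670.1, whereas lists for skeletal muscle and adipocytes summed to at most 0.252 and 6.17. KO replicate 4 stood apart in red blood cell transcripts, with a summed level of 3360 against 560.3 to 1271 in the other libraries, and KO replicate 3 in Aqp2 of collecting duct principal cells, at 446 against 108 to 189.

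Of the 39 genes, 38 passed the filter of a mean of at least 0.5 scaled FPKM, and Hk2 did not, with 0.0741 to 0.351 scaled FPKM and as few as 6 reads in a library. None of the 38 was called between genotypes (limma with Benjamini-Hochberg adjustment over all 14022 genes tested, adjusted p under 0.05), and the smallest adjusted p was 0.114, for Pdk2. Over all genes tested 7 were called, a share of 0.0499%. At an unadjusted p under 0.05 in limma, 7 of the 38 were lower in KO (18.4%, against 8.26% of all genes tested) and 1 was higher (2.63%, against 7.18%). The 7 were Pdk2, Eno1, Gpi1, Gapdh, Idh2, Pgam1 and Aldoa, and the higher gene was Pfkp. limma's voom on the recovered reads also called none and likewise had 7 lower and 1 higher at an unadjusted p under 0.05. The groups did not overlap, all 4 KO values lying below all 4 WT values, for 8 genes (21.1%, against 4.28% of all genes), and all 4 KO values lay above for 1 gene, Pdha1 (2.63%, against 4.34%). The direction of the 38 estimates was below 0 for 26 and above 0 for 12, with a median log2 fold change of -0.04 beside -0.00 over all genes tested. With quantile normalization the direction was less one-sided: 21 lay below 0 and 17 above. In that fit 6 were lower and 4 higher at an unadjusted limma p under 0.05, beside 1105 and 1044 of the 14022 genes tested. The groups did not overlap for 3 (2 lower, 1 higher), beside 570 lower and 598 higher of all genes tested. Without WT replicate 1 the counts at an unadjusted p under 0.05 were 5 lower and 0 higher. Without KO replicate 3 they were 7 and 0, and without KO replicate 4 they were 5 and 1, the libraries that stood apart in collecting duct and red cell transcripts. In whole-kidney RNA, fewer cells of a type and less RNA per cell cannot be told apart.

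**Figure D1:**
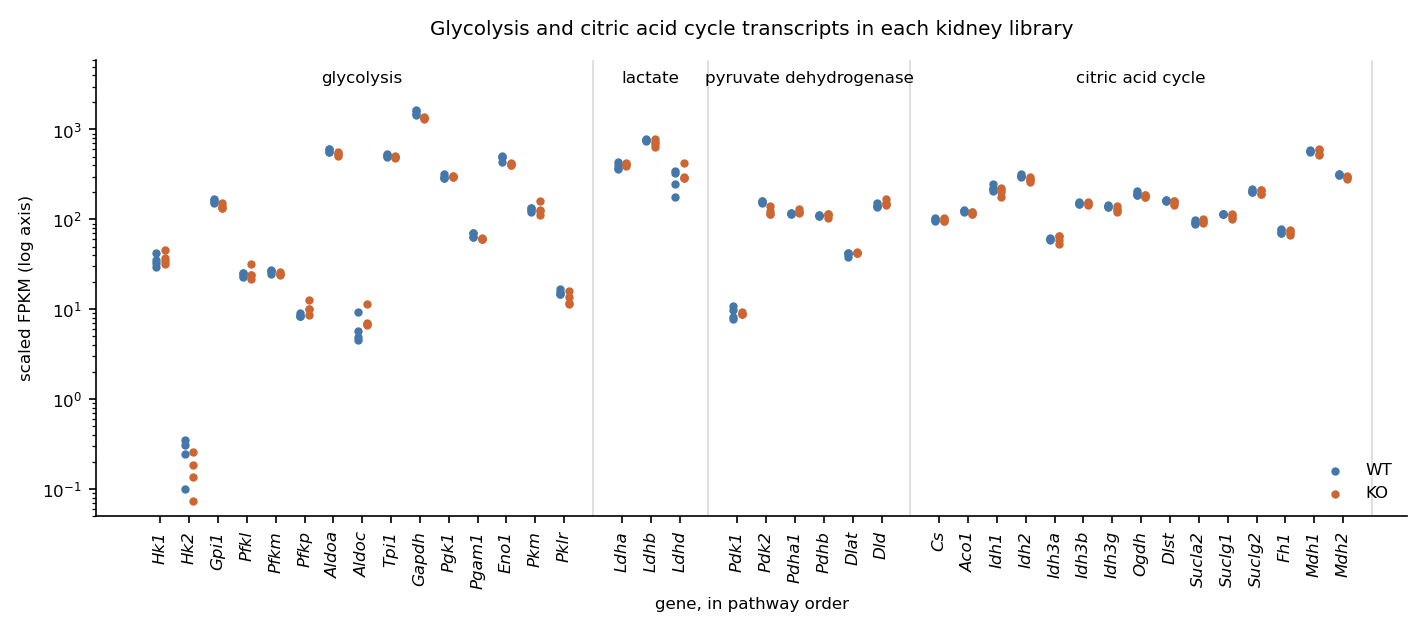
Scaled FPKM (log axis) of all 39 genes in pathway order, with a point for each of the 4 WT and 4 KO libraries. The genes span from Hk2, at 0.0741 to 0.351, to Gapdh, at 1321 to 1659, and the distance between genotypes is small beside the distance between genes.

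The pathway's levels were uneven from step to step. Gapdh, which oxidises glyceraldehyde 3-phosphate, was the most abundant of the 39 at a mean of 1446 scaled FPKM and made up 36.8% to 40.6% of the summed glycolysis level. Next came Ldhb (736), the lactate dehydrogenase subunit of aerobic tissues, Mdh1 (569), the cytosolic malate dehydrogenase, Aldoa (560.5), an aldolase, and Tpi1 (503), triosephosphate isomerase. At the other end, 4 of the 39 had a mean under 10: Hk2, Aldoc, Pdk1 and Pfkp. The one-way steps of glycolysis were carried by transcripts of 130.2 (Pkm) or less, while 5 of the 8 genes of the reversible steps had means of 299 or more. The 39 genes together took 1.67% to 1.81% of the counted reads of a library.

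The smallest p of the 38 was that of Pdk2 (ENSMUSG00000038967, chr11:95026258-95041354, build mm10), a kinase that switches pyruvate dehydrogenase off and that made up 67.6% to 83.5% of the summed level of the 4 such kinases. Pdk2 was at 157, 162, 152 and 159.7 in the WT libraries and 115, 125, 116 and 140.4 in the KO libraries. Every KO library lay below every WT library, and KO replicate 4 was nearest to the WT range. The means were 158 ± 4.03 (SD, n = 4) and 124 ± 11.9 (SD, n = 4), a log2 fold change of -0.35 with a standard error of 0.0666 (limma, Benjamini-Hochberg adjusted p = 0.114). The adjusted p was 0.0550 without KO replicate 4 and 0.349 without WT replicate 2, the lowest and highest of 19 alternatives. Pdk2 lies on chromosome 11, 23.4 Mb from C1qtnf1, and 3 of the other genes are on that chromosome too, Aldoc at 40.1 Mb, Mdh1 at 96.9 Mb and Ogdh at 112 Mb. How much of the 129S5 chromosome around the allele remained in these mice was not tested.

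**Figure D2:**
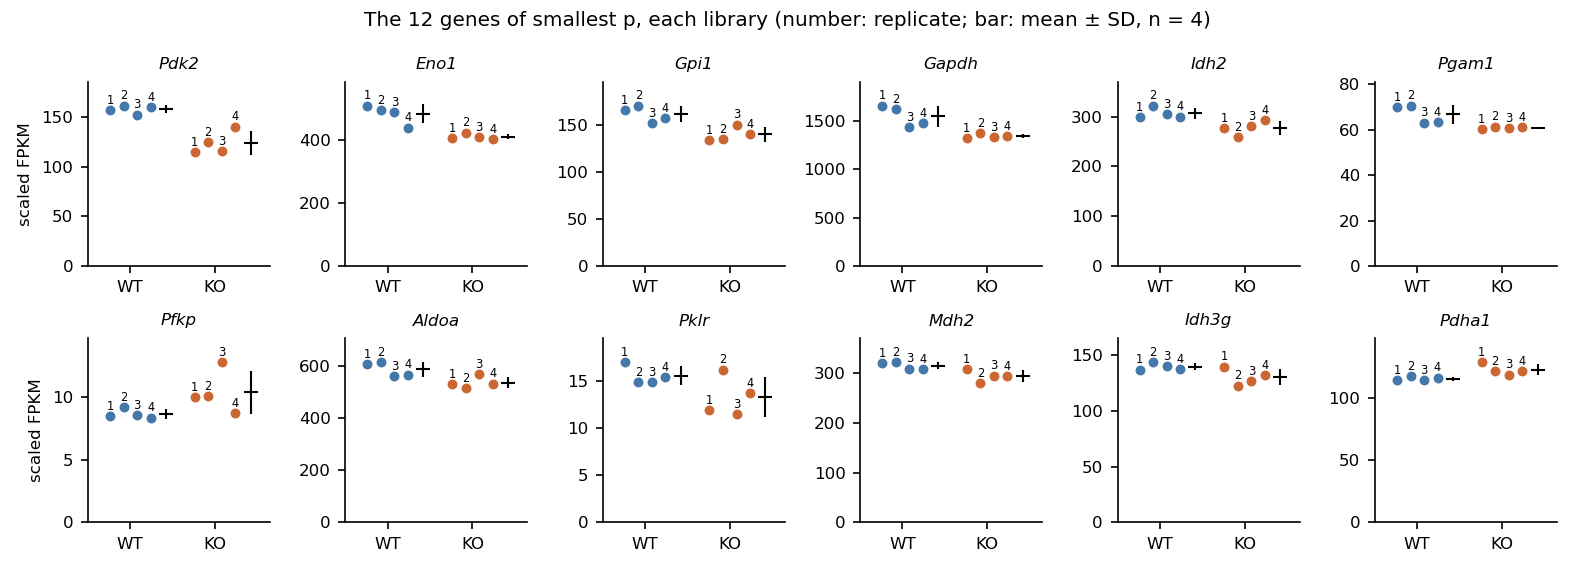
Scaled FPKM in each of the 8 libraries for the 12 genes of smallest p in limma, numbered by replicate, with the mean ± SD (n = 4) to the right of each group and every axis starting at 0. Pdk2, Eno1, Gpi1, Gapdh, Idh2, Pgam1 and Mdh2 have all KO points below all WT points, and Pdha1 has them above.

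Among the reversible steps of glycolysis, 5 of 8 genes were lower in KO at an unadjusted p under 0.05 and none was higher, with a median log2 fold change of -0.13. Over all genes tested 8.26% were lower and 7.18% higher at that threshold. None of the 5 passed the adjusted threshold, and 3 had an unadjusted p under 0.05 with GC and length trends removed. In that fit 7.06% of all genes tested were lower at an unadjusted p under 0.05. Eno1 (ENSMUSG00000063524, chr4:150236721-150248879), the enolase of most tissues, was at 509.9, 496, 489.6 and 440.0 in the WT libraries and 407, 424, 410.1 and 404 in the KO libraries. The KO libraries were close together below the lowest WT library, WT replicate 4 (log2 fold change -0.23, standard error 0.0563, limma adjusted p = 0.159). Gpi1 (ENSMUSG00000036427, chr7:34202122-34230289), glucose-6-phosphate isomerase, was at 166, 171, 152 and 158 in the WT libraries and 134, 135, 150.4 and 141 in the KO libraries. KO replicate 3 came nearest to the WT range, just under WT replicate 3 (log2 fold change -0.21, adjusted p = 0.178 in limma). Gapdh (ENSMUSG00000057666, chr6:125161853-125166467) was at 1659, 1623, 1438 and 1478 in the WT libraries and 1321, 1374, 1329 and 1342 in the KO libraries. Its KO values spanned less than its WT values, in which replicates 1 and 2 were high (log2 fold change -0.21, adjusted p = 0.206 in limma).

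Pgam1, the phosphoglycerate mutase of most tissues, was at 69.9, 70.7, 63.1 and 63.5 in the WT libraries and 60.4, 61.4, 60.6 and 61.3 in the KO libraries. WT replicates 1 and 2 were again the high ones, and WT replicates 3 and 4 lay just above the KO range (log2 fold change -0.13, limma adjusted p = 0.278). Aldoa was at 605, 614, 559 and 565 in the WT libraries and 530.2, 513, 567 and 531 in the KO libraries. Here the groups overlapped, since KO replicate 3 exceeded WT replicates 3 and 4 (log2 fold change -0.13, limma adjusted p = 0.306). The other 3 genes of these steps did not reach an unadjusted p of 0.05: Tpi1 had a log2 fold change of -0.06, Pgk1, phosphoglycerate kinase, one of 0.01, and Aldoc one of 0.38. Over all glycolysis genes the count of 5 lower at an unadjusted p under 0.05 became 3 in each of the fits that lacked WT replicate 1, WT replicate 2, KO replicate 1 or KO replicate 4. Among all genes tested 1158 of 14022 were lower at that threshold, and 868, 783, 831 and 1104 in those fits, in that order. The count of 4 glycolysis genes whose KO values all lay below WT was 0 with quantile normalization, 2 with no scaling factor, and 6 without WT replicate 3 or without KO replicate 2. Over all genes tested that count was 600 of 14022, 570 with quantile normalization and 541 of 14034 with no scaling factor. It was 1632 without WT replicate 3 and 892 without KO replicate 2, and leaving out any other library gave 734 to 978. Groups of fewer libraries separate more easily, which holds for each of these fits. Why the count was largest without WT replicate 3 was not tested.

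In the one-way steps the estimates lay on both sides of 0. Of their 6 tested genes 3 had estimates above 0 and 3 below, with a median log2 fold change of 0.02. Pfkp, the phosphofructokinase named for platelets, was at 8.50, 9.21, 8.55 and 8.38 in the WT libraries and 9.98, 10.1, 12.8 and 8.74 in the KO libraries. KO replicate 3 was the highest and KO replicate 4 lay inside the WT range (log2 fold change 0.24, standard error 0.0999, limma adjusted p = 0.297). Without KO replicate 3 the estimate for Pfkp was 0.14, and its unadjusted p stayed under 0.05 in only 2 of the 8 fits that each left out a library, those lacking WT replicate 2 and KO replicate 4. Pfkm, the muscle-type form and the most abundant of the 3 phosphofructokinases, was at 27.6, 26.9, 25.01 and 26.5 in the WT libraries and 24.98, 26.1, 25.01 and 24.2 in the KO libraries. Its groups overlapped, with a log2 fold change of -0.08 (limma adjusted p = 0.456). Pklr, the pyruvate kinase of liver, red cells and proximal tubule, was at 16.96, 14.9, 14.8 and 15.4 in the WT libraries and 11.9, 16.2, 11.4 and 13.6 in the KO libraries. KO replicates 1 and 3 were low and KO replicate 2 was at the WT level (log2 fold change -0.23, limma adjusted p = 0.324).

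Hk1, the hexokinase of most tissues, was at 33.03, 42.3, 29.96 and 35.7 in the WT libraries and 34.7, 37.3, 45.8 and 32.1 in the KO libraries. The highest library was KO replicate 3 and the next WT replicate 2, so that the spread within each genotype exceeded the distance between their means (log2 fold change 0.09, standard error 0.124). Pkm, the pyruvate kinase of most tissues, was at 134, 136, 127 and 122 in the WT libraries and 123, 128, 161 and 111 in the KO libraries. KO replicate 3 was again highest and KO replicate 4 lowest, with a log2 fold change of -0.00. Pfkl, the liver-type phosphofructokinase, ranged over 23.1 to 25.7 in WT and 21.6 to 32.1 in KO, its highest value too being that of KO replicate 3.

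**Figure D3:**
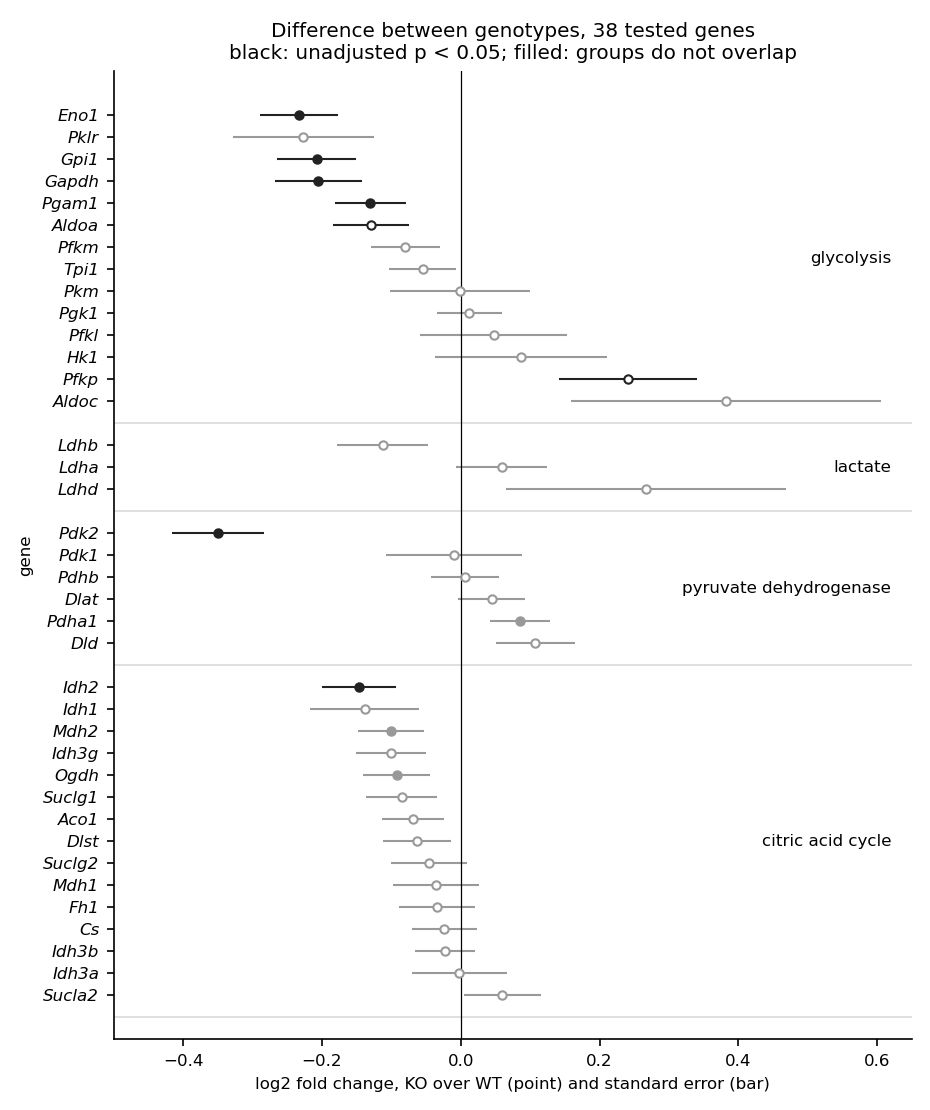
KO over WT log2 fold change (point) with its standard error (bar) for the 38 tested genes by section; black marks an unadjusted p under 0.05 in limma and a filled point marks groups that do not overlap. In glycolysis the estimates run from -0.23 for Eno1 to 0.38 for Aldoc, whereas in the citric acid cycle 14 of 15 lie between -0.15 and 0.

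Within steps that have several forms, the shares of the forms had no overlap between genotypes in 3 cases. Pfkp made up 13.9% to 14.98% of the 3 phosphofructokinases in WT and 16.02% to 18.3% in KO. Suclg2, the GDP-forming beta subunit of succinyl-CoA ligase, made up 68.7% to 69.4% of both beta subunits in WT and 67.3% to 68.1% in KO, the remainder being the ADP-forming Sucla2. Pdk3, which is not among the 39, took 6.75% to 9.07% of the 4 pyruvate dehydrogenase kinases in WT and 10.3% to 14.1% in KO. These shares are descriptions with no test. The steps looked at were those of hexokinase, phosphofructokinase, aldolase, pyruvate kinase, lactate dehydrogenase, pyruvate dehydrogenase kinase, succinyl-CoA ligase, malate dehydrogenase and isocitrate dehydrogenase. For levels rather than shares, the groups did not overlap for 4.34% of all genes tested, higher in KO, and for 4.28%, lower in KO. The other forms overlapped: Hk1 was 98.8% to 99.8% of Hk1 and Hk2, Pkm 88.8% to 93.4% of both pyruvate kinases, and Ldha 32.5% to 39.1% of Ldha and Ldhb.

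None of the 3 genes that act on lactate was called or reached an unadjusted p of 0.05 in limma. Ldha, the subunit that favours lactate formation, ranged over 359.5 to 431 in WT and 390.0 to 428 in KO (log2 fold change 0.06). Ldhb was at 761, 782, 743 and 767 in the WT libraries and 778, 638, 689 and 726 in the KO libraries. The WT libraries were close together and the KO libraries spread around and below them (log2 fold change -0.11, limma adjusted p = 0.428). With quantile normalization its unadjusted limma p was 0.0329 and without KO replicate 1 it was 0.0292, with all KO values below all WT values in both and adjusted p-values of 0.290 and 0.406. Ldhd, a mitochondrial enzyme that oxidises D-lactate, was at 325, 246, 179.7 and 344 in the WT libraries and 419.8, 296, 290.0 and 288 in the KO libraries. The groups overlapped widely, with WT replicate 3 at the bottom, KO replicate 1 at the top and SDs of 75.8 and 64.3 (log2 fold change 0.27, standard error 0.202, limma adjusted p = 0.546).

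At the entry of pyruvate into the mitochondrion the estimate for Pdk2 lay below 0 and those of all 4 complex subunits above 0, or of 3 of the 4 with GC and length trends removed or without WT replicate 1, KO replicate 1 or KO replicate 4. Pdha1, the catalytic alpha subunit that the kinases phosphorylate, was at 114, 118, 114 and 117 in the WT libraries and 129, 122, 119 and 122 in the KO libraries. All KO values exceeded all WT values, by a small margin between WT replicate 2 and KO replicate 3 (log2 fold change 0.09, standard error 0.0435, limma adjusted p = 0.372). Dld, the dihydrolipoamide dehydrogenase that serves several complexes, had a log2 fold change of 0.11 (limma adjusted p = 0.385), Dlat, the acetyltransferase core, one of 0.04, and Pdhb, the beta subunit, one of 0.01. None of the 4 reached an unadjusted p of 0.05 in limma. Pdha1 and Dld passed it with quantile normalization (limma adjusted p = 0.197 and 0.234), and 1 subunit passed it with no scaling factor and 1 without WT replicate 3. Pdk1, the kinase known for its induction under low oxygen, was at 9.06 on average against 141 for Pdk2, with a log2 fold change of -0.01.

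The citric acid cycle genes had small estimates of mostly 1 sign: 14 of 15 lay below 0, with a median log2 fold change of -0.06, and 10 of 15 with quantile normalization. Only 1 was lower at an unadjusted p under 0.05 (6.67%, against 8.26% of all genes tested) and none was called. That was Idh2 (ENSMUSG00000030541, chr7:80094846-80115392), the mitochondrial NADP-dependent isocitrate dehydrogenase, at 299, 322, 305 and 300.2 in the WT libraries and 277, 258, 280.4 and 293 in the KO libraries. All KO values lay below all WT values, KO replicate 4 being nearest (log2 fold change -0.15, standard error 0.0530, limma adjusted p = 0.254). Mdh2, the mitochondrial malate dehydrogenase, was at 320.2, 322, 309 and 308 in the WT libraries and 308, 279, 295 and 293 in the KO libraries. KO replicate 1 lay just under WT replicate 4, the lowest WT value (log2 fold change -0.10, limma adjusted p = 0.344). Ogdh, the first subunit of the 2-oxoglutarate dehydrogenase complex, also had no overlap, at 188 to 206 in WT and 176 to 188 in KO (log2 fold change -0.09, limma adjusted p = 0.385). Its KO replicate 4, at 188.27, lay barely under WT replicate 3, at 188.35, and its groups overlapped with voom. With quantile normalization, or with GC and length trends removed, the groups overlapped for all 15 citric acid cycle genes.

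The 3 subunits of the NAD-dependent isocitrate dehydrogenase differed among themselves in size of estimate. Idh3g, a regulatory subunit, was at 137, 144, 139.9 and 137 in the WT libraries and 139, 122, 127 and 132 in the KO libraries. KO replicate 1 matched the WT libraries and the other 3 KO libraries lay below them (log2 fold change -0.10, limma adjusted p = 0.369). Idh3b, the most abundant of the 3, was at 149.7, 154, 155 and 150.3 in the WT libraries and 151, 150.2, 143 and 154 in the KO libraries, with overlapping groups and a log2 fold change of -0.02. Idh3a, the catalytic subunit, had a log2 fold change of -0.00. Of the remaining mitochondrial enzymes, Suclg1, the alpha subunit of succinyl-CoA ligase, had a log2 fold change of -0.09, Dlst, the core of the 2-oxoglutarate dehydrogenase complex, -0.06, and Suclg2 -0.05. Fumarase (Fh1) had -0.03, citrate synthase (Cs) -0.02, and Sucla2, the only estimate above 0, 0.06. The 3 cytosolic counterparts lay below 0 as well: Idh1 at -0.14, Aco1, which also acts as an iron-regulatory protein, at -0.07, and Mdh1 at -0.04.

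Set against each other as summed levels, the glycolysis genes gave 4085, 4039.98, 3741 and 3753 scaled FPKM in the WT libraries and 3496, 3527, 3607 and 3503 in the KO libraries. Every KO sum lay below every WT sum, and Gapdh alone supplied more than any other gene to it. The citric acid cycle genes summed to 2809 to 2869 in WT and 2581 to 2804 in KO, again with no overlap. The ratio of both sums was 1.37 ± 0.0690 (SD, n = 4) in WT and 1.31 ± 0.0639 (SD, n = 4) in KO, and its libraries overlapped, at 1.305 to 1.454 and 1.247 to 1.366. The difference of the mean log2 ratios was -0.07, and it was 0.02 when the mean of the genes' log2 values, in which each gene counts equally, replaced the sum. No test was made on the sums or on the ratio.

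Other genes of the same pathways were taken from 5 lists, and none of their 46 tested members was called. Unadjusted limma p-values under 0.05 were found for 4 higher and 5 lower genes, shares of 8.70% and 10.9% that are near the 7.18% and 8.26% of all genes tested. Around pyruvate entry 3 of 9 (Pdpr, Pdk3 and Pdp1) were higher and 1 lower, and without KO replicate 1 the counts were 1 and 0. Pdpr, the regulatory subunit of pyruvate dehydrogenase phosphatase, which opposes the kinases, was at 11.03, 10.8, 10.6 and 12.1 in the WT libraries and 13.4, 13.5, 12.99 and 13.1 in the KO libraries. No KO value reached down to the WT range (log2 fold change 0.24, standard error 0.0542, limma adjusted p = 0.151). Pyruvate carboxylase (Pc), which feeds oxaloacetate to gluconeogenesis, had a log2 fold change of -0.18 (limma adjusted p = 0.251). Among malic enzymes and carriers, Me1, the cytosolic malic enzyme, was the 1 higher gene of 11, at 135, 128, 125 and 139 in the WT libraries and 173, 146, 147 and 152 in the KO libraries (log2 fold change 0.23, limma adjusted p = 0.186), and Slc25a11, the 2-oxoglutarate carrier, came next by p with a log2 fold change of -0.11.

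All 6 gluconeogenic bypass enzymes had estimates below 0, with a median of -0.21, and 3 of them (Fbp2, G6pc and Fbp1) had an unadjusted limma p under 0.05, a count of 1 without KO replicate 2 and of 5 without KO replicate 4. All 6 stayed below 0 in every alternative. Fbp2, a fructose bisphosphatase, was at 12.3, 16.1, 15.3 and 14.9 in the WT libraries and 9.19, 8.37, 11.7 and 11.8 in the KO libraries. The groups did not overlap (log2 fold change -0.50, limma adjusted p = 0.159). G6pc, which releases free glucose, was at 344, 346, 499.8 and 318 in the WT libraries and 229, 206, 333 and 302 in the KO libraries. WT replicate 3 was high and KO replicates 1 and 2 low, and KO replicate 3 reached into the WT range (log2 fold change -0.50, limma adjusted p = 0.246). The 8 further citric acid cycle genes, which include the subunits of succinate dehydrogenase, all had estimates below 0 (5 of 8 with quantile normalization) and none an unadjusted p under 0.05. Nnt, the mitochondrial transhydrogenase, had a log2 fold change of -0.41 (limma adjusted p = 0.506). Of 12 other glycolytic isozymes and regulators 8 had estimates above 0 and 4 below, with a median log2 fold change of 0.06. With quantile normalization 10 lay above 0 and 2 below. Only 1 of the 12 was lower at an unadjusted p under 0.05 in limma, Pgam2 (-0.21, adjusted p = 0.285).

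Marker transcripts of some nephron segments differed between the same libraries. The list of 9 genes for the convoluted part of the proximal tubule summed to 4092 to 4452 in WT and 3579 to 3815 in KO, with 4 of its 9 genes lower at an unadjusted limma p under 0.05. The 7 genes for the straight part summed to 543 to 825 in WT and 879 to 1062 in KO, with 3 of 7 higher. The 7 genes of intercalated cells summed to 109.7 to 119 in WT and 91.4 to 105 in KO, with 4 of 7 lower. No gene of these 3 lists was at 0 in every library. Estimates ran against the list's direction for 2 of 9, 2 of 7 and 1 of 7 genes, in that order. All 4 tested genes of the distal convoluted tubule and all 7 of fibroblasts and smooth muscle had estimates below 0. None of them had an unadjusted limma p under 0.05. Over all marker lists, 9 of 72 tested genes were lower and 4 higher at that threshold, against 8.26% and 7.18% of all genes tested. The lists for the convoluted proximal tubule and for intercalated cells were lower in KO, and the list for the straight proximal tubule was higher. Estimates were below 0 for 6 of 8 reversible glycolysis genes, with Aldoc and Pgk1 above 0, and for all 6 gluconeogenic bypass enzymes. The part of these segments in those differences was not tested.

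Some levels followed single libraries rather than the genotype. Of the 38 genes 6 were highest in KO replicate 3, the glycolysis genes Hk1, Pfkl, Pfkp, Aldoc and Pkm and the citric acid cycle gene Idh3a. That number is not unusual among the libraries: WT replicate 2 was highest for 10 and WT replicates 1 and 3 for 6 each, and WT replicate 1 too was highest for 5 glycolysis genes. Hk1 and Aldoc were next highest in WT replicate 2. Aldoc, the brain-type aldolase, was at 4.90, 9.42, 4.54 and 5.70 in the WT libraries and 6.69, 7.11, 11.4 and 6.95 in the KO libraries. Markers of the thick ascending limb summed to 2549 in WT replicate 2 and 2528 in KO replicate 3 against 1758 to 2347 in the others, and its transporter Slc12a1 was at 173, 313, 168 and 233 in the WT libraries and 275, 286, 335 and 226 in the KO libraries. Principal cell markers summed to 636 in KO replicate 3 against 253 to 359. Ldhd had another order, and its lowest and highest libraries, WT replicate 3 and KO replicate 1, were also those of Slc22a7, a transporter of the straight proximal tubule, which was at 13.1, 9.21, 1.68 and 17.7 in the WT libraries and 61.1, 16.3, 13.4 and 10.6 in the KO libraries. The part of segment composition in these levels was not tested.

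**Figure D4:**
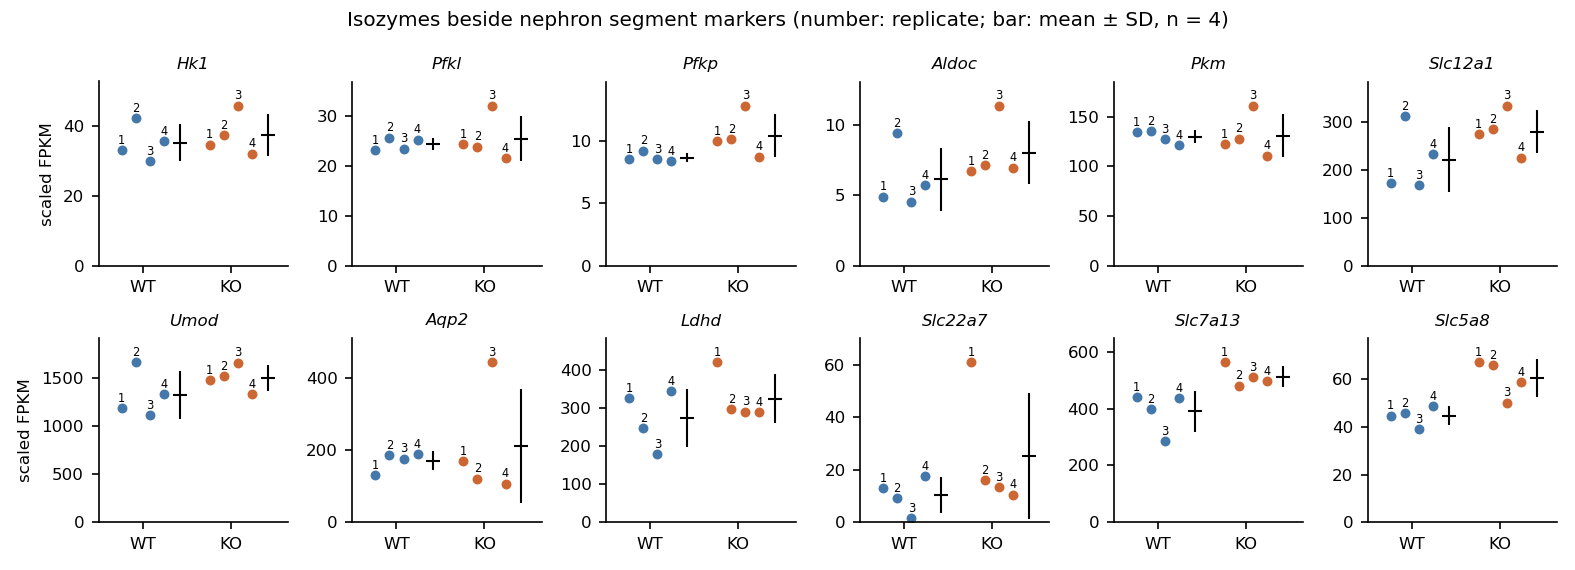
Scaled FPKM by library for 6 members of the pathways and for markers of the thick ascending limb (Slc12a1, Umod), principal cells (Aqp2) and straight proximal tubule (Slc22a7, Slc7a13, Slc5a8), numbered by replicate, with mean ± SD (n = 4) and axes from 0. KO replicate 3 is the highest point for Hk1, Pfkl, Pfkp, Aldoc, Pkm, Slc12a1 and Aqp2, and KO replicate 1 for Ldhd, Slc22a7, Slc7a13 and Slc5a8.

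The fold changes of all genes ran with transcript GC content, which touches these genes unequally. Across 13947 genes, which are not independent replicates and share libraries, Spearman's rho of log2 fold change with GC content was -0.44. For each library's log2 deviation from the gene's mean, rho was 0.46, 0.39, -0.24 and 0.29 in the WT libraries. In the KO libraries it was -0.39, -0.07, -0.12 and -0.36. WT replicate 3 thus had the sign of the KO libraries. The median GC content was 53.8% for the glycolysis genes, 47.7% for the citric acid cycle genes, 55.6% for the 7 lower genes and 49.9% for all genes. With trends of GC content and gene length removed from each library, the glycolysis median went from -0.07 to -0.01 and the citric acid cycle median from -0.06 to -0.07, with all 15 cycle genes below 0. In that fit 7 of the 38 were lower at an unadjusted limma p under 0.05 (18.4%, against 7.06% of all genes tested) and 0 were higher (against 4.32%). They were Pdk2, Eno1, Gpi1, Gapdh, Idh1, Suclg1 and Suclg2, and Aldoa, Pgam1 and Idh2 were no longer among them. Pdk2 had a log2 fold change of -0.27, Eno1 -0.15, Gpi1 -0.18, Gapdh -0.17 and Aldoa -0.05. The groups then did not overlap for 3 of the 38 (7.89%), all lower in KO, beside 565 lower and 333 higher of the 13947 genes.

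**Figure D5:**
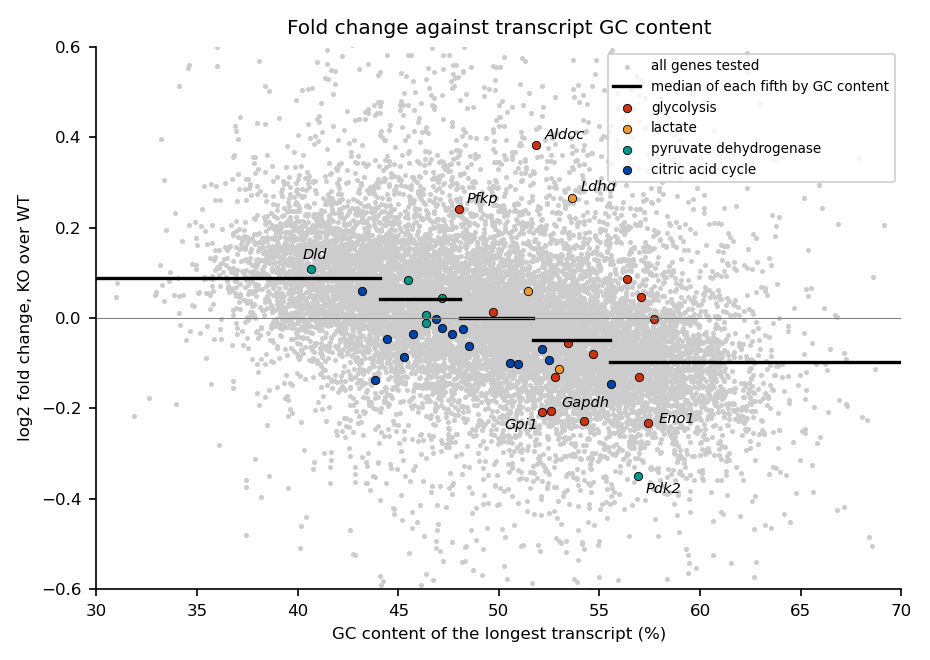
KO over WT log2 fold change against the GC content (%) of the longest transcript for all tested genes (grey), with the median of each of 5 equal groups of genes by GC content (black lines) and the 38 genes coloured by section; 221 genes outside the axes are not drawn. The medians step down from 0.09 to -0.10, and Pdk2, Gpi1 and Gapdh lie below the line of their group while Aldoc, Ldhd and Pfkp lie above theirs.

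Hypoxia-inducible factor, which raises many glycolysis genes, binds a core of 5 letters, ACGTG, and promoters were searched for it because several of these genes had estimates of the same sign. The search covered both strands of RefSeq promoters on build GRCm38.p6, 250 bases before to 50 after each start, and found entries for 38 of the 39 genes, Idh3a being the other. The core also lies inside CACGTG, the E-box of another family of factors, so a match does not tell them apart. It was found in 23 of 58 promoters of these genes (39.7%), in 24.7% of the promoters of all genes tested and in 19.6% of all promoters. Counted by gene, 16 of 38 had it (42.1%), against 28.7% of the genes tested. These were 9 of 15 glycolysis genes, 2 of 3 that act on lactate, 2 of 6 of pyruvate dehydrogenase and 3 of 14 of the citric acid cycle, whose share of 21.4% lay below that of the genes tested. By promoter the citric acid cycle had 8 of 20, of which 6 belong to Ogdh, and some of these 6 overlap and share sites. Matches stood both in genes lower in KO and in genes with estimates near 0, and 5 windows of 25 bases show this, read 5′ to 3′ on the gene's strand with the core, or its reverse complement CACGT, in capitals.
Pdk2 (chr11:95041483-95041507, minus strand): cgaggagagcCACGTgtcgaagcgc
Aldoa (chr7:126799366-126799390, minus strand): tggctcgagtCACGTcctagcgggg
Pgam1 (chr19:41911747-41911771, plus strand): ctccttgcttACGTGcgctccgtga
Pgk1 (chrX:106186940-106186964, plus strand): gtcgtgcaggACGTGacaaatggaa
Ldha (chr7:46845746-46845770, plus strand): gcccagcctaCACGTgggttcccgc

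The first 3 windows belong to genes lower in KO at an unadjusted p under 0.05, with log2 fold changes of -0.35, -0.13 and -0.13, and the last 2 to genes with log2 fold changes of 0.01 and 0.06. In Pdk2 and Ldha the letters around the core spell the E-box. Eno1, Gpi1, Idh2 and Pfkp had no match, which says only that these letters are not in those windows.

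Some of these genes have near-identical copies, so the reads counted for them depend on how the counting treated reads that fit several places. Gapdh had 81 copies of at least 95% identity over at least 100 bases, and the 59 of them in the table summed to 13.6 scaled FPKM against 1446 for Gapdh. Eno1 shares 85.6% of its transcript with Eno1b at 99.5% identity, which stood at 1.69. Ldhb shares 76.8% with the pseudogene Gm5514, which stood at 7.05, and Gpi1 shares 50.2% with Gm1840, at 1.53. Copies of Pgk1, Pgam1, Pkm, Ldha and Suclg2 were found as well, none with a summed level above 4.10. Pdhb shares 71.2% with the pseudogene Gm6123, which is not among the 23386 genes. Pfkp overlaps Pitrm1 over 18.0% of its transcript, and Pitrm1 stood at 16.3 scaled FPKM, above the mean of 9.54 for Pfkp. Pdha1 overlaps Map3k15, at 9.29, and Pklr overlaps Hcn3, at 0.540. No source used here says if the counting used strand, so the values of Pfkp, Pdha1 and Pklr are uncertain to that extent. Pdk2 and Idh2 had no such copy.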

How the data were processed

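Poly(A)-selected RNA of 8 left kidneys, 4 per genotype by the labels' genotype field, was sequenced. The authors deposited FPKM values and gene lengths for 23386 genes, per the file headers. CASAVA, STAR 2.5, HTSeq 0.6.1, DESeq2 and build mm10 are named in the submitters' processing notes, with no roles. FPKM times length gave whole reads for 100.0% of values within 0.01, and these recovered reads were used for limma's voom and for the depth per library.

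Scaling used 1 median-ratio factor per library (0.978 to 1.03). Genes with a mean of at least 0.5 were kept, and log2(scaled FPKM + 0.5) went into limma 3.58.1 under R 4.3.3, a linear model of genotype with trended eBayes. Tests were two-sided, with Benjamini-Hochberg adjustment over 14022 genes and a threshold of 0.05. Fold changes are on the log2(value + 0.5) scale, which understates those of low genes. The fit was tested on simulated data. GC content, found for 99.5% of tested genes, and copies (blastn 2.17.0) came from GENCODE vM21 transcripts. GC and length trends were removed by natural splines of 4 degrees of freedom per library. The labels call the animals of a genotype biological replicates. Alternatives were other pseudocounts, filters, scalings and limma settings, voom, trend removal and leaving out each library.

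The genes, the lists and the tests were chosen with earlier results of these data known. Values in every library are given for the 12 genes of smallest p and the most abundant form of each step. From each further list the 2 genes of smallest p are named, apart from some not reported here, and any other gene was picked for naming with its values in view.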

Additional observations from a re-analysis of the deposited data

Results flagged for a closer look

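In 106 groups of 4 libraries, each a gene's level or an isozyme's share in 1 genotype, 7 held a library whose gap to the next exceeded Dixon's 95% critical value for the share of the range. Chance flags about 1 in 20 such groups. For Aldoc the value of KO replicate 3 was 11.35 scaled FPKM, beside 6.69 to 7.11 for the rest of its genotype, and its share of Aldoa and Aldoc there was 1.964% against 1.247% to 1.368%. Ldhd stood at 419.8 in KO replicate 1 against 288 to 296. Dld stood at 150.8 in WT replicate 3 against 139 to 141. Pdk1 was at 9.446 in KO replicate 2 against 8.79 to 8.87, and its share of Pdk1 and Pdk2 was 5.923% in KO replicate 4 against 7.02% to 7.17%. Suclg2 made up 68.74% of both succinyl-CoA ligase beta subunits in WT replicate 3 and 69.4% in each of the other WT libraries. No explanation of these values was tested.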

How the results depend on the processing

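None of the 38 genes was called under any of the 19 alternatives, in which the lowest adjusted p was 0.0550 (limma, Pdk2 without KO replicate 4), and no estimate of the 15 genes followed through all of them changed sign. The number at an unadjusted p under 0.05 was 8, and leaving out each library gave 5 to 9. It fell to 5 without WT replicate 1. The number whose groups do not overlap was 9, and 3 with quantile normalization and 3 with trends of GC content and length removed. The glycolysis median of -0.07 was -0.014 with those trends removed. The log2 ratio of glycolysis to citric acid cycle levels, -0.07 as sums, was 0.015 as a mean of log2 values. The cause of these shifts was not tested. All genes but Hk2 had at least 203 reads in every library, and Hk2 had as few as 6. No paired analysis was possible because the replicate numbers were given in accession order, so they only name the animals, and no label ties a WT animal to a KO animal.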

Other observations

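Nnt, the mitochondrial transhydrogenase that couples NADH to NADPH and was listed among the further citric acid cycle genes, took separate levels that did not follow the genotype. It was at 101, 77.7, 81.3 and 46.9 in the WT libraries and 45.4, 97.3, 45.99 and 47.04 in the KO libraries. 4 libraries, WT replicate 4 and KO replicates 1, 3 and 4, lay at 45.4 to 47.0, WT replicates 2 and 3 at 77.7 and 81.3, and WT replicate 1 and KO replicate 2 at 101 and 97.3. The C57BL/6J stock is known to carry a deletion within Nnt that other strains lack, and the genotype at Nnt of these animals was not analysed here.

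Pdk4, the pyruvate dehydrogenase kinase known for its rise in fasting, varied within both genotypes, at 6.31, 15.9, 15.6 and 11.98 in the WT libraries and 22.4, 11.1, 8.05 and 9.14 in the KO libraries. Its extremes were WT replicate 1 and KO replicate 1.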
